A study of Rattus norvegicus with 30 samples.

Results

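Genes of 9 enzymes that break down the aromatic amino acids in the liver were followed in cultured rat hepatocytes dosed with acetaminophen, a pain reliever that injures the liver at high dose. The genes were taken as a list of symbols, 9 of the 14217 genes named on the array, and all 9 were measured by 1 probe set each and were tested. Tat, Hpd, Hgd, Gstz1 and Fah degrade tyrosine and the phenylalanine that is converted to it, and Tdo2, Kmo, Kynu and Haao degrade tryptophan. The cells were frozen male Sprague Dawley hepatocytes from a supplier, plated on collagen under Matrigel and dosed on the third day of culture. At 48 h and at 24 h after dosing there were 5 wells with vehicle (1% DMSO), 5 with 500 µM and 5 with 5000 µM acetaminophen, and each well gave 1 array. The labels call the 5 wells separate cultures and name no donors, and their titles carry a running number over all arrays but no replicate number within a group. Replicates are numbered here in the order of that running number, and the spread behind each p-value is that of wells, not of animals.

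Tyrosine degradation begins with Tat, tyrosine aminotransferase, continues through Hpd, hydroxyphenylpyruvate dioxygenase, Hgd, homogentisate dioxygenase, and Gstz1, maleylacetoacetate isomerase, and ends with Fah, fumarylacetoacetate hydrolase. Loss of Fah in people causes hereditary tyrosinemia, and loss of Hgd causes alkaptonuria. Tryptophan is opened by Tdo2, tryptophan dioxygenase, to a product that becomes kynurenine, which Kmo, kynurenine monooxygenase, Kynu, kynureninase, and Haao, hydroxyanthranilate dioxygenase, carry toward the precursor of NAD. Both routes are strongly expressed in hepatocytes, and Tat and Tdo2 are known as genes induced by glucocorticoids.

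The start-site regions of 3 members are shown for the range of responses described below, from large falls at 24 h (Haao and Hgd) to no called change (Hpd). Each runs from 250 bases before to 50 bases after the start site in the promoter table, read along the gene's strand in the rat build GRCr8, from RefSeq. That site is the start of the annotated gene in Haao and Hpd, and it lies 9 bases inside the gene in Hgd and 181 bases inside it in Kmo, whose region is not shown. Haao lies at chr6:16598075-16598374 on the plus strand, Hgd at chr11:76643718-76644017 on the minus strand and Hpd at chr12:39041996-39042295 on the plus strand. Capitals mark the nuclear receptor half-site TGACCT or its reverse complement AGGTCA.
Haao: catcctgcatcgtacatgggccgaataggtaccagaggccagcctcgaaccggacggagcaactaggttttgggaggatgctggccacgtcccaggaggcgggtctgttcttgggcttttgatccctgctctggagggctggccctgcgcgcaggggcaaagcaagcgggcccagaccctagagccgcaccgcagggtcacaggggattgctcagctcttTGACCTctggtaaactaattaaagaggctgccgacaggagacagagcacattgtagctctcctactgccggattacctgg
Hgd: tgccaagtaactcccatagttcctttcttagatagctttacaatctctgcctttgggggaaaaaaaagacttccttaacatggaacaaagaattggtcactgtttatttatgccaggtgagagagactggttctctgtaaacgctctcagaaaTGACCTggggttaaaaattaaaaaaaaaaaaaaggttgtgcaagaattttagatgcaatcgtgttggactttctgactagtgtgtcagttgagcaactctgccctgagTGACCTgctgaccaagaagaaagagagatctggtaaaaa
Hpd: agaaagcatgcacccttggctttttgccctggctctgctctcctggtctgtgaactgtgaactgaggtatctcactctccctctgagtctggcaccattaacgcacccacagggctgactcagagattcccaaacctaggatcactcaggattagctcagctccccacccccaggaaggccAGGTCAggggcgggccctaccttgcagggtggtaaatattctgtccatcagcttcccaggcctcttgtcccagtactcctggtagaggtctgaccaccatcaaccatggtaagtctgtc
The half-site was found in 3 of the 9 member regions, with 2 copies in Hgd, against 16.2% of 33469 rat regions of the same length. It starts 30 bases before the start site in Haao and 69 bases before it in Hpd. In Hgd one copy starts 97 bases before the start site and the other 11 bases after it. Hpd carries it and was called in none of the 9 comparisons as deposited, and Kmo, which fell most at 48 h, does not carry these letters in this window. Of the other motifs searched on both strands, CCAAT was present in 5 of 9 members (37.5% of all regions) and TAAACA in Hgd and Kmo (13.7%). The glucocorticoid receptor half-site TGTTCT was found only in Haao among the 9 windows (20.7% of all regions), GTTAAT only in Hpd (7.5%) and TATAAA only in Tdo2 (14.2%). No searched motif overlapped another in these members, and a match is a description of letters only.

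The values are linear MAS5 signals, and changes are differences of log2 group means with their standard errors from limma, n = 5 arrays per group. The threshold for a call was a Benjamini-Hochberg adjusted p of 0.05, taken over the 8531 tested genes, which were the brightest 60%. Arrays of 1 group correlated between 0.9747 and 0.9926. The β-actin ratio, log2 of 3' over 5' probe sets and a sign of RNA quality, differed between groups. Vehicle wells averaged 1.24 ± 0.11, 500 µM wells 1.86 ± 0.12 and 5000 µM wells 1.21 ± 0.05 at 48 h (SD), and at 24 h the means were 1.78 ± 0.24 for vehicle, 1.61 ± 0.33 for 500 µM and 1.37 ± 0.22 for 5000 µM. It left a gap between 1.54 and 1.74 with 12 arrays above and 18 below. Marker signals do not test the hepatocyte label, as Cd14 of macrophages (16100) was brighter than Hnf4a of hepatocytes (12800). Of 8 hepatocyte markers 7 were on the array, at mean signals from 12800 to 71500. None was called at 5000 µM over vehicle at either time. In other comparisons Hnf4a was called, at 500 µM over vehicle at 48 h (0.72 ± 0.10) and in vehicle at 48 over 24 h (-0.73 ± 0.10). At 5000 over 500 µM at 48 h Hnf4a was lower (-0.49 ± 0.10) and Fgb higher (0.24 ± 0.07). Markers of other cell types were partly present. The tested ones were Cd14 (16100), Lyz2 (7110) and Cd68 (848) of 8 macrophage and leukocyte markers on the array, Acta2 (850) and Col3a1 (568) of 8 stellate and fibroblast markers, Kdr (506) of 5 endothelial markers and Epcam (10800) of 5 bile duct markers. The others lay under the dimmest tested gene at 469, among them Adgre1 (22.9), Lrat (34.2), Stab2 (160) and Krt19 (148).

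The members spanned a wide range of signal. Hpd was among the brightest genes of the culture, with a mean signal of 56900 and 31 tested genes above it, and Tdo2 followed at 47000. Fah (19700), Tat (19100) and Gstz1 (11500) were brighter than at least 87.5% of tested genes. Haao (6950), Kynu (6080) and Hgd (3050) lay lower, and Kmo was dim at 893, brighter than 18.7% of tested genes. These are levels of different probe sets and do not rank the transcripts by abundance.

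**Figure D1:**
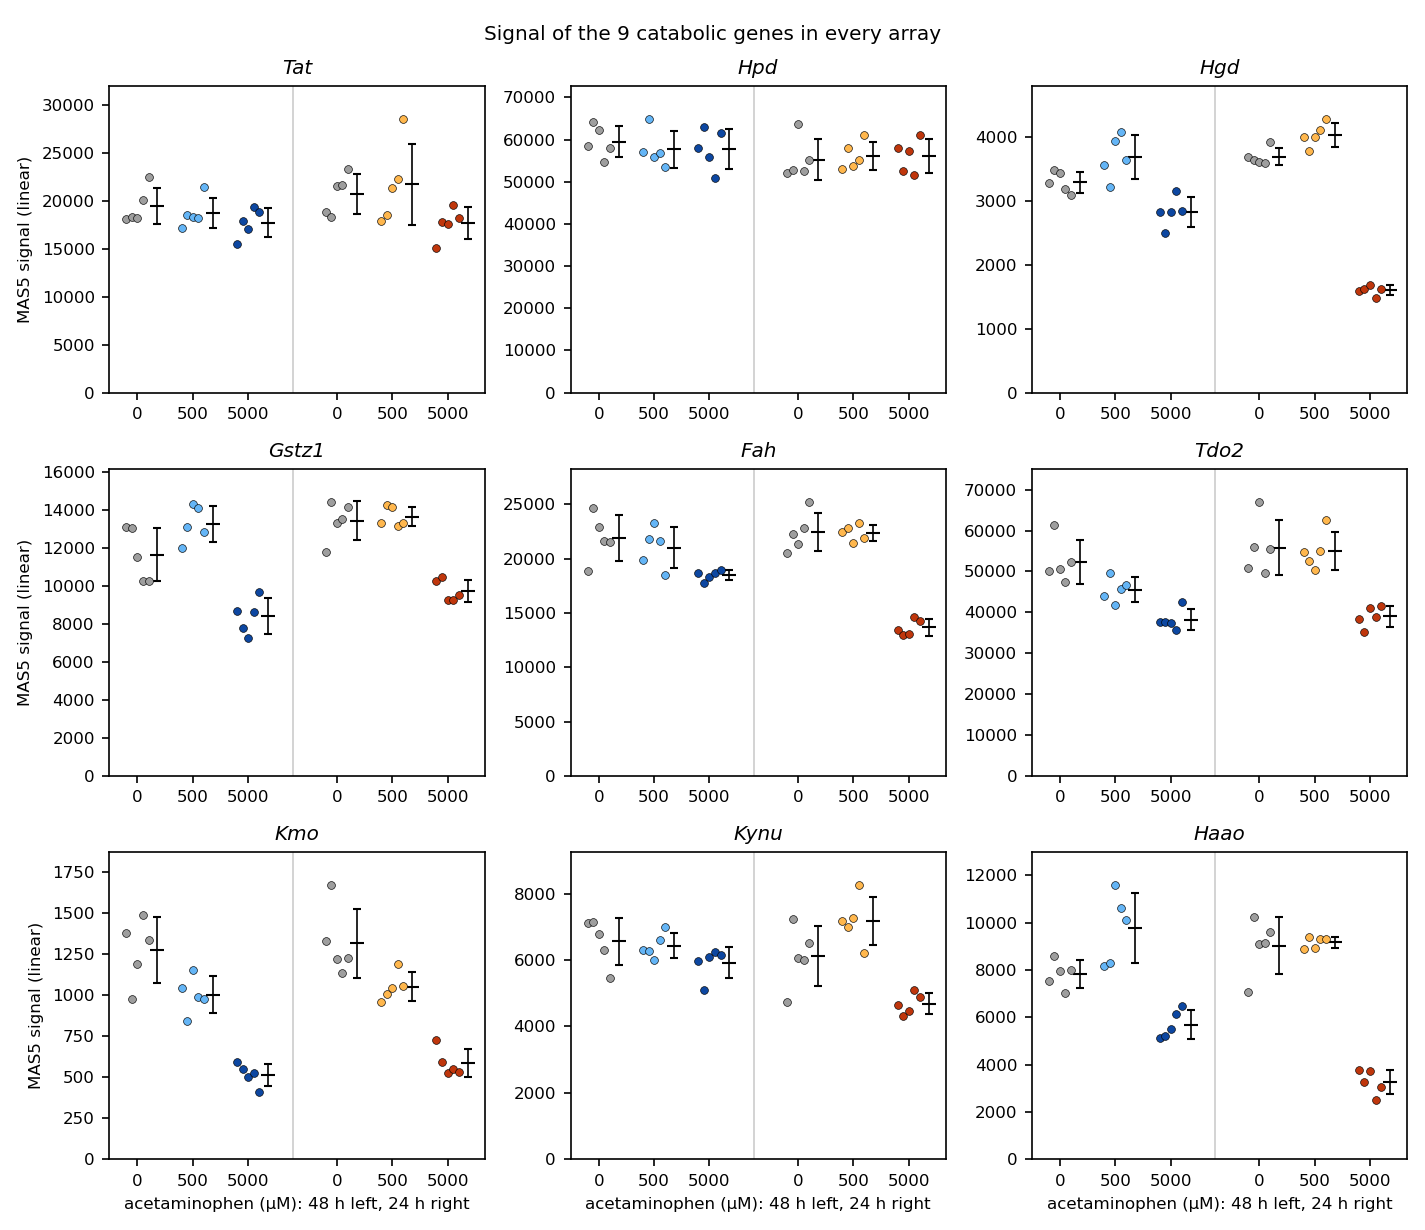
MAS5 signal (linear, from 0) of each of the 9 genes in all 30 arrays, with 48 h left and 24 h right of the grey line and acetaminophen dose in µM on the horizontal axis (0 is vehicle); points are arrays, and bars beside them are the mean ± SD of 5. Haao, Hgd, Kmo, Fah, Tdo2 and Gstz1 at 5000 µM and 24 h lie wholly below vehicle of that time, whereas Hpd stays between 50953 and 64900 in all arrays.

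At 5000 µM and 24 h, 7 of the 9 genes fell and none rose. Across the 8531 tested genes 38.1% were called in this comparison and 19.6% were called lower. The members' median change was -0.51, beside 0.00 for all tested genes. The falls of Haao, Hgd and Kmo were at least 2-fold, as were those of 1.08% of tested genes. In 6 members the arrays of the groups did not overlap, which was so for 24.1% of tested genes.

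In the tyrosine route Hgd, Fah and Gstz1 fell, most in Hgd and least in Gstz1. Hgd, which opens the ring of homogentisate, had signals of 1587, 1623, 1687, 1479 and 1626 at 5000 µM, against 3686, 3640, 3613, 3593 and 3914 in vehicle. Every 5000 µM array was below every vehicle array, and the change was -1.21 ± 0.06 (adjusted p = 1.05e-15), which left 43.4% of the vehicle level. Fah, the last enzyme of the route, had signals of 13406, 12953, 13091, 14640 and 14256 at 5000 µM, against 20553, 22289, 21368, 22863 and 25219 in vehicle. Its groups were again separate, with a change of -0.71 ± 0.06 (adjusted p = 1.08e-10). Gstz1, the isomerase between them, averaged 9754 ± 583 at 5000 µM and 13459 ± 1035 in vehicle (SD, n = 5), a fall of -0.46 ± 0.07 (adjusted p = 8.4e-06) without overlap.

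The first enzymes of tyrosine degradation differed from the later ones in their calls. Hpd averaged 56093 ± 3972 at 5000 µM and 55214 ± 4903 in vehicle, a difference of 0.02 with a 95% interval of -0.11 to 0.16 (adjusted p = 0.806). The interval leaves no room for a fall of the size seen in Hgd or Fah. Tat had signals of 15030, 17803, 17590, 19574 and 18165 at 5000 µM, against 18790, 18321, 21531, 21637 and 23258 in vehicle. These overlapped, and the change of -0.23 ± 0.10 was not called (adjusted p = 0.0542). Signals near those of Hpd and Tdo2 varied little in general, since the 100 brightest tested genes had a median range of group means of 0.17 against 0.42 for all tested genes (log2), and 12 of the 100 were called here. Of the 100, 98 had a narrower range than Tdo2 and 5 a narrower range than Hpd.

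In the tryptophan route all 4 members fell at 5000 µM and 24 h, least in Kynu and most in Haao. Haao, which forms the precursor of quinolinate, had signals of 3750, 3247, 3712, 2506 and 3032 at 5000 µM, against 7057, 10251, 9080, 9151 and 9609 in vehicle. The groups were separate, and the change of -1.48 ± 0.10 (adjusted p = 6e-13) was a 2.79-fold fall that stood at place 22 among all falls. Kmo, which hydroxylates kynurenine, had signals of 727, 593, 526, 546 and 528 at 5000 µM, against 1330, 1668, 1222, 1134 and 1224 in vehicle. It fell by 1.17 on the log2 scale (SE 0.12, adjusted p = 4.66e-09) without overlap. Its lowest signals were near 469, the mean of the dimmest tested gene, which is a filter threshold and not a measured background. A background in signals this low would bear on the size of the fall, and no alternative subtracted one. Over 21 alternatives the Kmo fall lay between -1.25 and -1.05, a range that does not cover such a background. Tdo2, the entry enzyme, averaged 39000 ± 2498 at 5000 µM and 55837 ± 6802 in vehicle, a change of -0.51 ± 0.07 (adjusted p = 1.3e-06). Kynu averaged 4685 ± 317 at 5000 µM and 6118 ± 911 in vehicle, and its change of -0.37 ± 0.09 (adjusted p = 0.000973) was called although 1 vehicle array, at 4749, lay among the treated ones.

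The β-actin ratio was lower at 5000 µM than in vehicle at 24 h, and with it in the fit the falls changed in both directions. Haao (-1.44), Kmo (-1.10) and Gstz1 (-0.42) fell somewhat less than without it. Fah (-0.75), Tdo2 (-0.54) and Kynu (-0.39) fell somewhat more, and Hgd (-1.21) was unchanged. With the ratio as a covariate 8 members fell, their median change was -0.54 and 30.5% of tested genes were called, and among arrays below the gap alone, 4 at 5000 µM against 2 in vehicle, 8 fell as well, beside 28.7% of tested genes called. The eighth was Tat in both. Within groups Tat signal went down as the ratio went up, by -0.64 ± 0.10 log2 per unit of ratio (adjusted p = 0.00017), a slope called in 18% of tested genes and in no other member. The slope lay between -0.73 and -0.54 when each array was left out, nearest 0 without the brightest Tat array of the 500 µM group at 24 h. In every group both the highest Tat signal and the lowest ratio were in replicate 4 or 5, late in the running order. Ratio and order thus went together in part only. In 500 µM wells at 48 h the ratio rose from 1.778 in replicate 1 to 1.997 in replicate 4. The parts of ratio and order in the slope, and in the Tat values fitted with the covariate, were not tested. With the covariate Tat changed by -0.49 ± 0.08 at 5000 µM and 24 h (adjusted p = 1.01e-05), against the uncalled -0.23 without it. Tat was called in 10 of 22 alternatives for this comparison, among them those without replicate 1 of vehicle (-0.26), replicate 2 of vehicle (-0.27) or replicate 4 of 5000 µM (-0.27), and its change lay between -0.49 and -0.17 over the 22.

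**Figure D2:**
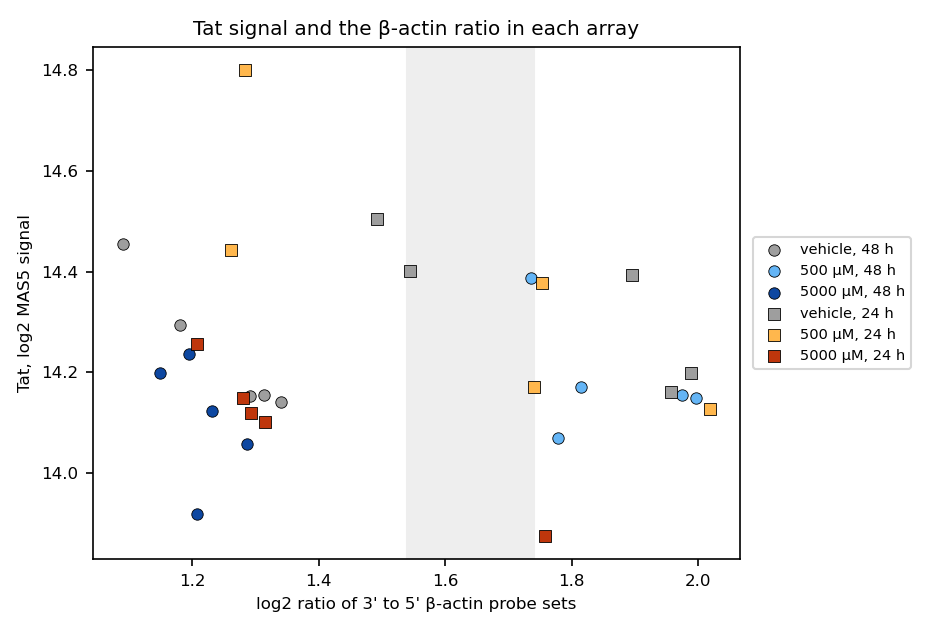
Tat signal (log2, vertical axis) against the β-actin ratio (log2 of 3' over 5' probe sets) (horizontal axis) in each of the 30 arrays, circles for 48 h and squares for 24 h, coloured by group as in the key. The shaded band is the gap between 1.54 and 1.74, all 5 arrays of 500 µM at 48 h lie right of it, and all 5 vehicle and 5000 µM arrays of 48 h lie left of it.

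At 5000 µM and 48 h, 6 of the 9 genes were lower than vehicle and none was higher. Of all tested genes 32.6% were called and 18% were called lower, the members' median change was -0.24 and that of all tested genes -0.01. The arrays of 4 members did not overlap, against 25.4% of tested genes. The β-actin ratio hardly differed between these groups, and all 10 arrays lay below the gap.

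Kmo fell most at 48 h. Its signals were 590, 550, 503, 524 and 411 at 5000 µM, against 1379, 975, 1187, 1488 and 1337 in vehicle. The arrays did not overlap, the change was -1.30 ± 0.12 (adjusted p = 5.83e-10), and 1 treated array was under 469. Haao had signals of 5116, 5216, 5491, 6130 and 6495 at 5000 µM, against 7537, 8582, 7964, 7024 and 8011 in vehicle, a change of -0.46 ± 0.10 (adjusted p = 0.000619) with separate groups. Tdo2 averaged 38171 ± 2582 at 5000 µM and 52341 ± 5318 in vehicle (change -0.45 ± 0.07, adjusted p = 1.08e-05), and here too all treated arrays were below all vehicle arrays. Kynu, at 5920 ± 470 at 5000 µM and 6571 ± 702 in vehicle, was not called (-0.15 ± 0.09, adjusted p = 0.215).

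In the tyrosine route Gstz1 fell most at 48 h, to 8419 ± 932 at 5000 µM, against 11664 ± 1396 in vehicle (change -0.47 ± 0.07, adjusted p = 8.13e-06). The groups did not overlap. Hgd had signals of 2821, 2494, 2829, 3161 and 2843 at 5000 µM, against 3285, 3477, 3436, 3178 and 3090 in vehicle. Its fall of -0.22 ± 0.06 (adjusted p = 0.00798) was small and 1 treated array lay among the vehicle arrays. Fah had signals of 18708, 17746, 18327, 18682 and 18972 at 5000 µM, against 18866, 24646, 22878, 21590 and 21550 in vehicle. Of its treated arrays 1 was above the lowest vehicle array, and the change was -0.24 ± 0.06 (adjusted p = 0.00331). The changes of Tat (-0.13 ± 0.10, adjusted p = 0.315) and Hpd (-0.04 ± 0.06, adjusted p = 0.668) were not called.

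The effect of 5000 µM differed between 48 and 24 h in 3 members, Haao, Hgd and Fah, and was smaller at 48 h in each. This difference of effects was called in 16.4% of tested genes and was called higher in 7.74%. Haao stood at 72.6% of vehicle at 48 h and 35.9% at 24 h, a difference of 1.02 ± 0.14 in log2 change (adjusted p = 9.83e-06). Hgd stood at 85.8% at 48 h and 43.4% at 24 h, a difference of 0.98 ± 0.09 (adjusted p = 7.01e-09). Fah stood at 84.7% at 48 h and 60.9% at 24 h, a difference of 0.47 ± 0.09 (adjusted p = 0.000343). In these 3 genes every 5000 µM array of 48 h was above every 5000 µM array of 24 h, and in the other 6 the arrays overlapped. The share of all tested genes with such a separation was not counted. Kmo stood at 40.6% of vehicle at 48 h and 44.5% at 24 h, with a difference of -0.13 and a 95% interval of -0.49 to 0.22. For Gstz1 (72.2% at 48 h and 72.5% at 24 h) the interval was -0.22 to 0.21, and for Tdo2 (73.1% and 70.1%) it was -0.15 to 0.27. Kynu (90.3% at 48 h and 77.2% at 24 h) had a difference of 0.23 ± 0.12 that was not called (adjusted p = 0.219).

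**Figure D3:**
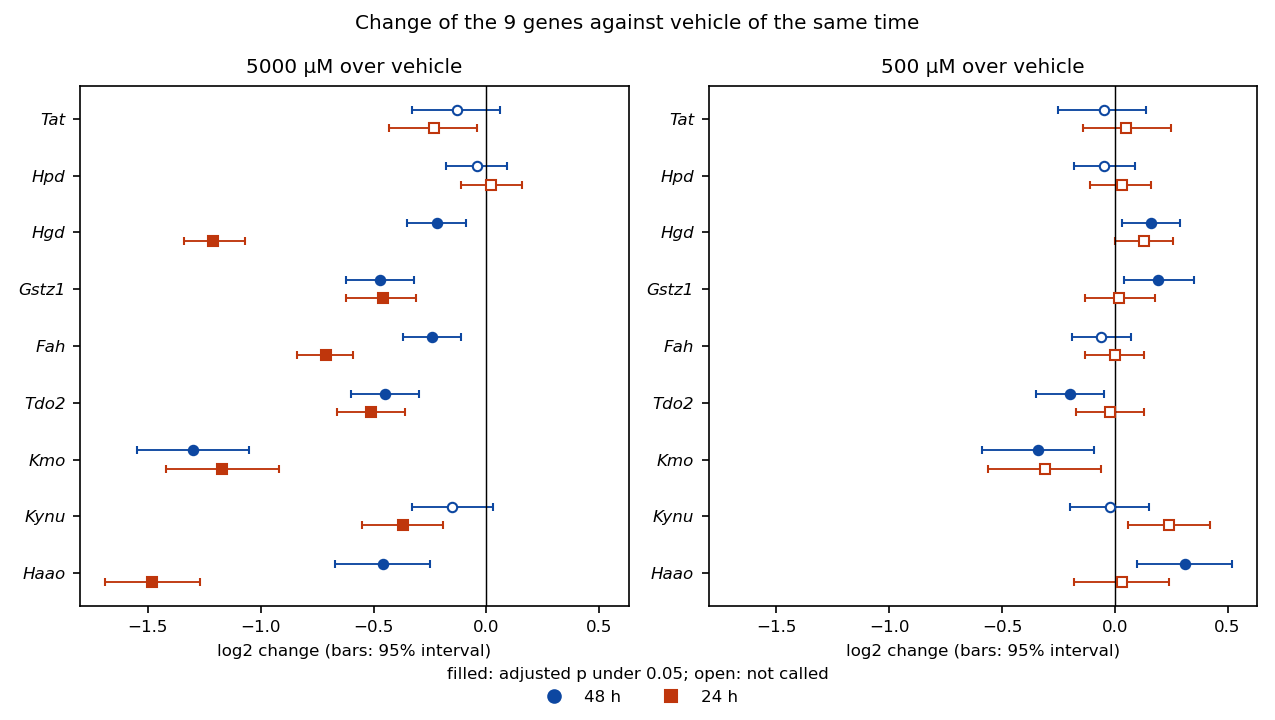
Log2 change of the 9 genes at 5000 µM (left) and 500 µM (right) over vehicle of the same time, with 95% intervals; circles are 48 h and squares 24 h, and filled symbols passed an adjusted p of 0.05. At 5000 µM the Haao, Hgd and Fah symbols of the 2 times stand apart, and those of Kmo, Gstz1 and Tdo2 lie close together.

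At 500 µM and 24 h no member was called in limma, and 2.86% of tested genes were. At an unadjusted p under 0.05 there were 2 members, Kmo (-0.31 ± 0.12) and Kynu (0.24 ± 0.09), with adjusted p of 0.158 and 0.131. Haao signals were 8885, 9392, 8920, 9316 and 9301 at 500 µM, and those of Hgd were 3993, 3782, 3994, 4102 and 4282. Both sets overlapped the vehicle arrays given above. The 95% intervals of the 9 changes ran at most from -0.56 to 0.42, so falls as large as those of Haao, Hgd and Kmo at 5000 µM lie outside them.

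At 500 µM and 48 h, 5 members were called, 3 higher and 2 lower, while 42.6% of all tested genes were called, 24% higher and 18.6% lower. Haao had signals of 8180, 8312, 11580, 10600 and 10128 at 500 µM, against the vehicle signals of that time given above, a rise of 0.31 ± 0.10 (adjusted p = 0.0161). Gstz1 rose by 0.19 ± 0.07 (adjusted p = 0.0367) and Hgd by 0.16 ± 0.06 (adjusted p = 0.0459). Tdo2 had signals of 44012, 49606, 41731, 45768 and 46751 at 500 µM, against 50117, 61312, 50692, 47345 and 52239 in vehicle, a fall of -0.20 ± 0.07 (adjusted p = 0.0309). Kmo had signals of 1041, 842, 1155, 985 and 977 at 500 µM, a fall of -0.34 ± 0.12 against vehicle (adjusted p = 0.026). In all 5 genes the arrays of the groups overlapped, and 27.4% of tested genes had separate groups.

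None of these 5 calls held beside the β-actin ratio. All 500 µM arrays of 48 h were above the gap and all vehicle arrays of 48 h below it, so dose and ratio cannot be told apart in this comparison. With the ratio as a covariate the 5 values kept their sign (Haao 0.25, Hgd 0.17, Gstz1 0.13, Tdo2 -0.15 and Kmo -0.45) with adjusted p between 0.147 and 0.553, and 3.97% of tested genes were called. In that fit Tat, at -0.05 ± 0.10 without the covariate, was called higher at 0.34 ± 0.09 (adjusted p = 0.0295). When arrays were centred on their medians 0 members were higher and 2 lower. With arrays left out in turn, the count was 1 without replicate 3 of 500 µM or replicate 5 of vehicle, 2 without replicate 4 of vehicle, and 3 without replicate 4 of 500 µM or replicate 1 of vehicle.

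Between the doses, which share their vehicle wells but were compared directly here, 5000 µM lay below 500 µM in 8 members at 24 h and in 6 at 48 h. Of all tested genes 31.2% were called at 24 h (14.3% lower) and 47.6% at 48 h (28.2% lower). At 24 h Haao differed by -1.51 ± 0.10, Hgd by -1.33 ± 0.06, Kmo by -0.86 ± 0.12 and Kynu by -0.61 ± 0.09. The groups were separate in 7 members, beside 19.4% of tested genes. At 48 h Kmo (-0.96 ± 0.12), Haao (-0.77 ± 0.10), Gstz1 (-0.66 ± 0.07) and Hgd (-0.38 ± 0.06) had separate groups, as did 32.9% of tested genes. At 48 h the 500 µM arrays were all above the ratio gap and the 5000 µM arrays all below it. Dose and ratio thus cannot be told apart in this second set, and the fit with the covariate does not decide between them. In that fit 6 members were called lower, Tat (-0.49 ± 0.09) in place of Fah (-0.24 ± 0.09, adjusted p = 0.0588), beside 20.9% of tested genes called. The 24 h call of Tat (-0.28 ± 0.10) was lost without replicate 1 of 5000 µM or replicate 5 of 500 µM, and the 48 h call of Fah without replicate 3 of 500 µM. With arrays centred on their medians 4 members were called at 48 h, without Fah (-0.07, adjusted p = 0.386) and Tdo2 (-0.15, adjusted p = 0.157).

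Few members differed between vehicle wells of 48 and 24 h. Vehicle wells at 48 h had lower Hgd (-0.16 ± 0.06, adjusted p = 0.0496) and Gstz1 (-0.21 ± 0.07, adjusted p = 0.0293) than vehicle wells at 24 h, beside 32.5% of tested genes called and 19% called lower. Neither was called with the β-actin ratio as a covariate, when Tat alone was (-0.43 ± 0.08, adjusted p = 0.00173). In that fit 5.16% of tested genes were called. The difference of the 500 µM effect between 48 and 24 h was called in no member, beside 36.6% of tested genes. With the covariate the share of tested genes was 0.0352%, again with no member. Without the covariate 1 member, Kynu, reached an unadjusted p under 0.05 in limma for this difference. The vehicle count was 0 without replicate 4 or 5 of 48 h or replicate 2 or 5 of 24 h, and 1 without replicate 1 or 3 of 48 h or replicate 4 of 24 h. For the 500 µM difference it was 1 without replicate 5 of vehicle at 48 h or replicate 1, 2 or 3 of vehicle at 24 h.

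Over the 6 groups Haao had the widest range of group means, 1.59 on the log2 scale, wider than 99% of tested genes. Kmo (1.35) and Hgd (1.33) were next, both wider than 98.1%. Fah (0.71), Gstz1 (0.70), Kynu (0.61) and Tdo2 (0.54) lay between, Tat had 0.28, and Hpd had 0.11, narrower than all but 0.715% of tested genes. For Tat, Hgd, Fah, Kynu and Haao the lowest group was 5000 µM at 24 h, and for Gstz1, Tdo2 and Kmo it was 5000 µM at 48 h. Between neighbours in the order of levels, the arrays were separate only at the step from 5000 µM at 48 h down to 5000 µM at 24 h in Hgd, Fah and Haao, from vehicle at 48 h down to 5000 µM at 48 h in Haao, and from 500 µM at 48 h down to 5000 µM at 24 h in Tdo2 and Kmo. How often neighbouring groups were separate among all tested genes was not counted.

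Centred group means were compared by their root mean square difference on the log2 scale, over 6 groups. Among members Hgd and Haao, from different routes, differed by 0.142, and Gstz1 and Tdo2 by 0.134. The nearest pair was Fah and Kynu at 0.105, and the farthest was Hpd and Haao at 0.556. Outside the list, Haao was nearest to Gys2, the liver glycogen synthase (0.097), Ccdc141 (0.147) and Dpys, dihydropyrimidinase (0.159). Hgd was nearest to the water channel Aqp8 (0.115), Ftcd, of histidine breakdown (0.134), and Smlr1 (0.135). Kmo was nearest to Cd209f (0.089), the cytokine gene Clcf1 (0.101) and Myadm (0.129).

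Kmo and Kynu are also expressed in macrophages. Of the 8 macrophage and leukocyte markers on the array Cd14, Lyz2 and Cd68 were tested, and the other 5 had mean signals from 22.9 to 333. The summed signal of the list was 20879 to 22983 at 5000 µM and 24401 to 28505 in vehicle at 48 h. At 24 h it was 19699 to 22564 at 5000 µM and 22761 to 30421 in vehicle. Most of this sum is Cd14 (mean signal 16100) and Lyz2 (7110), so it does not describe the list as a whole. Cd14 fell at both times (-0.28 ± 0.07 at 48 h and -0.54 ± 0.07 at 24 h) and Cd68 and Lyz2 were not called. Their part in the Kmo and Kynu values was not tested. In such wells fewer cells of a type and less RNA per cell cannot be told apart.

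**Figure D4:**
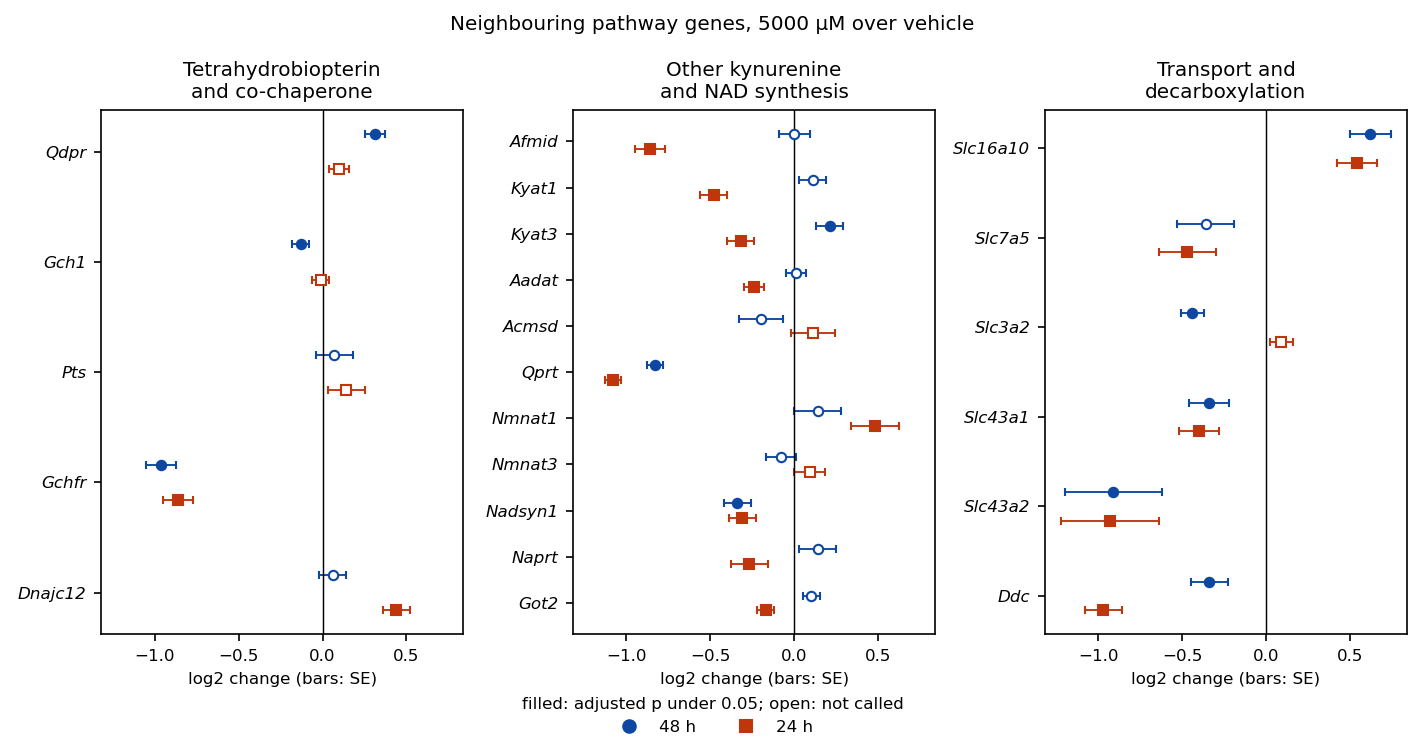
Log2 change (± SE) at 5000 µM over vehicle of the 22 tested neighbouring genes in 3 lists, circles for 48 h and squares for 24 h, filled where the adjusted p was under 0.05. Afmid, Kyat1 and Kyat3 lie left of 0 at 24 h and near or right of it at 48 h, and Qprt and Gchfr lie left of 0 at both times.

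Of 22 other tested genes of these routes, in 3 lists, 13 fell and 3 rose at 5000 µM and 24 h, and 8 fell and 3 rose at 48 h. Beside them 38.1% of all tested genes were called at 24 h (19.6% lower) and 32.6% at 48 h (18% lower). Among 11 further genes of kynurenine and NAD synthesis 8 fell and 1 rose at 24 h, with a median of -0.27. Qprt, which turns quinolinate into the NAD precursor and so acts after Haao, averaged 5192 ± 320 at 5000 µM and 10957 ± 637 in vehicle (-1.08 ± 0.05, adjusted p = 2.64e-16). Afmid, the formamidase that releases kynurenine after Tdo2, averaged 4205 ± 399 at 5000 µM and 7639 ± 458 in vehicle (-0.86 ± 0.09). Kyat1, a kynurenine aminotransferase, fell (-0.48 ± 0.08) and Nmnat1, which makes NAD in the nucleus, rose (0.48 ± 0.14). With the β-actin ratio as a covariate 6 fell and 1 rose, beside 30.5% of all tested genes called.

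At 48 h the kynurenine and NAD list had 2 genes lower and 1 higher, with a median of 0.01, beside 32.6% of all tested genes called. Qprt (-0.83 ± 0.05, adjusted p = 1.37e-13) and Nadsyn1, an NAD synthetase (-0.34 ± 0.08), fell and Kyat3 rose (0.21 ± 0.08). The value of Afmid was 0.00 ± 0.09. The effect of 5000 µM was called higher at 48 than at 24 h in 6 of the 11, beside 7.74% of all tested genes. It differed by 0.86 ± 0.13 for Afmid, 0.59 ± 0.12 for Kyat1, 0.54 ± 0.11 for Kyat3 and 0.27 ± 0.07 for Got2, a mitochondrial aminotransferase. With the covariate the first 3 of these and Aadat were called in both fits, and Got2 and Qprt were not.

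Genes of tetrahydrobiopterin, a cofactor of aromatic amino acid metabolism, formed another list. Gchfr, which mediates feedback inhibition of the first enzyme of cofactor synthesis, fell at 48 h (3999 ± 523 at 5000 µM and 7776 ± 689 in vehicle, -0.96 ± 0.09) and at 24 h (5412 ± 694 at 5000 µM and 9783 ± 1076 in vehicle, -0.86 ± 0.09). Of the 4 other tested genes Dnajc12, a co-chaperone, rose at 24 h (0.44 ± 0.08). Qdpr, which regenerates the cofactor, rose at 48 h (0.31 ± 0.06) and Gch1, the first enzyme of its synthesis, fell (-0.13 ± 0.05). All of these were called with the covariate as well.

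Among 6 genes of aromatic amino acid transport and decarboxylation, 4 fell and 1 rose at each time at 5000 µM. The share of all tested genes called was 32.6% at 48 h and 38.1% at 24 h. Ddc, the aromatic amino acid decarboxylase, fell at 48 h (-0.34 ± 0.11) and at 24 h (-0.97 ± 0.11), and the effect differed between the times by 0.63 ± 0.15 (adjusted p = 0.0036). Slc16a10, a carrier of aromatic amino acids, rose at 48 h (1254 ± 144 at 5000 µM and 816 ± 82.6 in vehicle, 0.62 ± 0.12) and at 24 h (1219 ± 149 at 5000 µM and 838 ± 90.8 in vehicle, 0.54 ± 0.12). The neutral amino acid carriers Slc43a2 (-0.91 ± 0.29 at 48 h, -0.93 ± 0.29 at 24 h) and Slc43a1 (-0.34 ± 0.12 at 48 h, -0.40 ± 0.12 at 24 h) fell at both times. Slc7a5 fell at 24 h (-0.47 ± 0.17), and its heavy chain Slc3a2 fell at 48 h (-0.44 ± 0.07). With the covariate only Ddc and Slc16a10 of the 5 were called at 24 h, and all 5 were at 48 h.

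Of 9 other tested genes known to respond to glucocorticoids, 2 fell at 5000 µM and 24 h, Pck1, of gluconeogenesis (-0.61 ± 0.18), and the co-chaperone Fkbp5 (-0.46 ± 0.10). Neither was called with the covariate. At 48 h Pck1 (-0.48 ± 0.18) and the phosphatase Dusp1 (-0.18 ± 0.07) fell and Tsc22d3 rose (0.31 ± 0.06). Of 8 liver-enriched transcription factors Foxa1 fell at 24 h (-0.62 ± 0.19), a call lost with the covariate. At 48 h Foxa1 (-0.52 ± 0.19) and Foxa3 (-0.42 ± 0.12) fell and Cebpa rose (0.24 ± 0.08). Beside both lists, 38.1% of all tested genes were called at 24 h (19.6% lower) and 32.6% at 48 h (18% lower).

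At 500 µM and 24 h no gene of the 5 lists was called in limma, and 12 of the 39 tested had an unadjusted p under 0.05. At 48 h 17 of the 39 tested were called, 10 higher and 7 lower, beside the 42.6% of all tested genes. Acmsd, which diverts the Haao product away from NAD, fell (845 ± 72.9 at 500 µM and 1482 ± 142 in vehicle, -0.81 ± 0.13), and Hnf4a, a hepatocyte transcription factor, rose by 0.72 ± 0.10. With the covariate Hnf4a was the 1 gene of the 17 still called, at 0.38 ± 0.11 (adjusted p = 0.0357).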

How the data were processed

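The authors deposited linear signal intensities, 1 per probe set and array, made with MAS5 per the submitters' processing notes. The sources used here do not give scanner, scaling target or version. Trimmed means ranged from 1500.55 to 1500.66 over the 30 arrays, which were thus already scaled, and the intensities were used as deposited after log2 transformation. Signals carry no counts, so precision is limited by the 5 arrays per group. Platform annotation gave 14217 genes, each by its brightest probe set, and the brightest 60% (8531) were tested. A linear model (limma 3.58.1, R 4.3.3) had a mean for each group over all arrays, with an intensity trend, 24 residual degrees of freedom and Benjamini-Hochberg adjustment. On simulated data with 200 genes changed at 5000 µM and 24 h, the fit recovered 98% of those changed by 1 on the log2 scale. It recovered 80% of those changed by 0.5, and 18 unchanged genes were called as well. Promoters came from RefSeq (GRCr8), which held all 9 members.

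The members and lists were chosen with earlier results of these data known. Of 51 genes in 5 lists 42 were named on the array and 39 tested. All members are named. All arrays are given for the 4 with the widest range of group means and for members called against most. From each list up to 4 called genes per comparison with the largest change are named, and some small counts are named in full. Alternatives were other scalings, filters and offsets, the mean of probe sets, the β-actin ratio as covariate or block, only the groups compared, no intensity trend, and each array left out. Fits to arrays on 1 side of the ratio gap, and with sets of running numbers as a block, were added after seeing the data.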

Additional observations from a re-analysis of the deposited data

Results flagged for a closer look

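The effect of 5000 µM acetaminophen differed between the times in Haao (1.02 higher at 48 than at 24 h, log2), Hgd (0.98) and Fah (0.47), by limma's test of the difference itself. All 3 calls were made in each of the 31 alternatives, with ranges of 0.93 to 1.10, 0.94 to 1.03 and 0.42 to 0.52.

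In 2 of 54 groups of 5 arrays 1 member array stood far from the other 4, where chance gives about 1 group in 20. Replicate 3 of vehicle at 24 h had a Hpd signal of 63734, and its gap to the next array was 0.722 of the range of the group. Replicate 2 of 5000 µM at 48 h had a Kynu signal of 5100, with a gap of 0.775 of the range.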

How the results depend on the processing

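Of 1917 member values recomputed under the alternatives, 1823 kept their side of the threshold, 69 lost a call, 23 gained one and 2 reversed. The 1823 include uncalled values whose sign changed, such as Tat at 500 µM over vehicle at 24 h (0.05, with a range of -0.05 to 0.17). The 2 were Tat at 500 µM over vehicle at 48 h (0.34 with the β-actin ratio as a covariate) and Hpd at 5000 over 500 µM at 48 h (-0.11 under quantile normalization). At 5000 µM over vehicle the number of members called stayed between 5 and 6 at 48 h and between 7 and 8 at 24 h in every alternative run, the lower value at 48 h coming with the brightest 40% of genes, which leaves out Kmo. At 500 µM over vehicle at 48 h the 5 calls became 2 with arrays centred on their medians, 2 with no filter on dim genes, 1 with the ratio as a covariate, 0 with the gap as a block, 3 with only the groups compared, and 1 to 4 with 1 array left out. In vehicle at 48 over 24 h the 2 calls became 0 with centred arrays, 1 with the mean of all probe sets, 1 with no filter, 1 with the covariate, 1 with the block, 1 with only the groups compared, and 0 to 2 with 1 array left out. The 500 µM difference between times had 1 call with centred arrays and 0 to 1 with 1 array left out, against 0. Beyond fewer arrays or genes, the cause was not tested. The titles carry a running number, and its 5 consecutive sets of 6 arrays each hold all groups, but no label says what it marks. Deviations from group means had a median correlation of 0.06 between arrays of the same set and -0.02 between arrays of different sets. Within sets it ran from -0.32 to 0.43 and was over 0.1 in 31 of 75 pairs. Of 30 arrays 19 were nearest to their own set among the 5, so arrays were somewhat more alike within sets. As the labels do not explain the number, the reported fit had no such block. With the sets as a replicate block, a fit chosen after seeing the data, the count of members called was 8 at 5000 µM over vehicle at 24 h, where Tat was added (-0.23 ± 0.06, adjusted p = 0.00285), 6 at 48 h, 5 at 500 µM and 48 h, and it equalled that without the block in the other comparisons. The lowest Kmo signals were near 469, a filter threshold and not a measured background. Its fall at 5000 µM over vehicle lay between -1.39 and -1.15 at 48 h and between -1.25 and -1.05 at 24 h over the alternatives. No alternative subtracted a background, which in signals this low would limit how well the size of a fall is known.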
